A study of Mus musculus with 79 samples.

Results

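Nuclear factor kappa B (NF-kB) targets and cytokines are described here in mouse lung, kidney and liver after 4 h of breathing 6% oxygen. The 10 genes were taken by name, for their known place in the NF-kB pathway. They and the gene lists used below were chosen with earlier results of these data known. The 10 genes were the inhibitors Nfkbia, Nfkbiz and Tnfaip3, the subunits Nfkb1 and Nfkb2, the cytokines Il6, Il1b, Cxcl1 and Ccl2, and the adhesion molecule Icam1. Of these, 9 had a row in each of the 5 count tables, among 15198 gene symbols listed in any table, and Il6 was not analysed here. All animals were C57BL/6 mice aged 3 months. Under light-dark (LD) cycles, wild-type (WT) animals breathed 6% oxygen, or 21% oxygen as synthetic air, in the light phase (zeitgeber time, ZT4-8) or in the dark phase (ZT16-20), and lung, kidney and liver were taken from each of 16 mice. In the part in constant darkness (DD), begun 2 days before the exposure, liver was taken from mice labelled Per1,2 double knockout (KO) and from WT mice, in 6% or 21% oxygen at circadian time CT4-8 or CT16-20. Each of the 20 groups had 4 libraries, except KO in 6% oxygen at CT16-20 with 3.

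NF-kB is a family of transcription factors that inhibitor proteins hold in the cytoplasm of unstimulated cells. Signals from cytokine receptors, pathogen receptors and cell stress lead to destruction of these inhibitors, and the freed dimers enter the nucleus and bind kB sites. Among the genes they induce are their own inhibitors, which end the response, and chemokines, cytokines and adhesion molecules that draw leukocytes into a tissue. Lung holds many endothelial cells and resident macrophages, in which this pathway is well studied. The tissues were sequenced in bulk, so that fewer cells of a type and less RNA per cell cannot be told apart in any difference below.

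Nfkbia encodes the main cytoplasmic inhibitor and lies at chr12:55489410-55492647 on the minus strand (mm10, GENCODE vM21). Tnfaip3, at chr10:19000910-19015657 on the minus strand, encodes a ubiquitin-editing enzyme that shuts off signalling upstream of NF-kB. Nfkbiz, at chr16:55811375-55838899 on the minus strand, encodes a nuclear inhibitor-family protein known as a coactivator of a subset of inflammatory genes. Nfkb1 lies at chr3:135584655-135691547 on the minus strand and Nfkb2 at chr19:46304320-46312385 on the plus strand, and each encodes a precursor protein that is cut to a DNA-binding subunit. Il1b, at chr2:129364570-129371139 on the minus strand, encodes a fever-inducing cytokine of macrophages and neutrophils. Cxcl1, at chr5:90891241-90893115 on the plus strand, encodes a chemokine for neutrophils, and Ccl2, at chr11:82035571-82037453 on the plus strand, a chemokine for monocytes. Icam1, at chr9:21015985-21028817 on the plus strand, encodes the endothelial ligand to which leukocytes adhere. Il1b, Ccl2 and Icam1 each share their locus with a gene on the opposite strand, Nfkb2 overlaps Psd and Nfkb1 overlaps Gm43430. The strand setting of the counting is not given in the sources used here, so reads of these 5 genes cannot be told from those of their overlapping partners.

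RefSeq promoter windows (GRCm38.p6) were found for 7 of the 10 genes, and the 250 bases before each start were searched on both strands for the 10-base kB consensus. It was present in 2382 of 32851 windows of that length, or 7.25%, and a looser pattern (GGG, any 5 bases, CC) was present in 45.8%. The consensus occurred upstream of Nfkbia, Tnfaip3, Nfkb2, Il6 and Cxcl1, while these letters were not in the windows of Il1b and Icam1. Shown are the windows of the genes with the most regular rise in low oxygen, Nfkbia (chr12:55492648-55492897) and Tnfaip3 at its upstream start (chr10:19015411-19015660), and of Cxcl1 (chr5:90890995-90891244), whose direction differed between tissues. Each is written on its gene's strand, and capitals mark the consensus.
Nfkbia: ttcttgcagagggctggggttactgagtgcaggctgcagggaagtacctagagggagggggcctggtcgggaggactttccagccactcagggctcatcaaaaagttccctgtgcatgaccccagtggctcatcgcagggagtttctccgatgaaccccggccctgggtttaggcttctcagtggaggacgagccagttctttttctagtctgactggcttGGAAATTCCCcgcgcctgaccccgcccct
Tnfaip3: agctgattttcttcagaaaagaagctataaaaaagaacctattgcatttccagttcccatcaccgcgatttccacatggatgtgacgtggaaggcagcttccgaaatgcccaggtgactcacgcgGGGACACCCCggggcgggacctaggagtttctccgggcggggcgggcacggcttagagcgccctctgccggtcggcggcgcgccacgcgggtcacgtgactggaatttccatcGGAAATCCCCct
Cxcl1: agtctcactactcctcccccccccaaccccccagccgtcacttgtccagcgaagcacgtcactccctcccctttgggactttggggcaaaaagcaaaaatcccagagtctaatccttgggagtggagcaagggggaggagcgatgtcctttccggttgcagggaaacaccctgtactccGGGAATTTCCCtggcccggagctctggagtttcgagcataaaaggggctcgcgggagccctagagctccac
In Nfkbia the match spans positions -29 to -20 from the annotated start, and in Tnfaip3 matches span -125 to -116 and -12 to -3. In Cxcl1 a pair of overlapping matches covers -71 to -61. A match is a description of the letters and not evidence of binding in these tissues.

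Total counts ran from 1.65 to 4.35 M per lung library and from 1.44 to 6.74 M over all 79 libraries. Levels are given as CPM, the read count of a gene scaled to a common total per library within a table, and fold changes as log2 of 6% over 21% oxygen ± SE, tested by edgeR's quasi-likelihood method, and p values are adjusted after Benjamini and Hochberg over all genes of a table. A gene is said to rise or fall at an adjusted p under 0.05. Of the lung libraries in air, B and C at ZT4-8 and D at ZT16-20 held 1863, 2021 and 1953 CPM of 4 summed skeletal muscle genes and 4520, 286 and 1449 CPM of 4 genes of stratified epithelium, against at most 64.9 and 43.6 CPM in the other 13 lung libraries. For the 9 genes, results that change without these 3 libraries are given both ways. The other gene lists and the marker sums in lung include these libraries and were not examined without them. Per1 and Per2 were counted in the libraries labelled KO at medians of 29.7 and 8.59 CPM in air at CT4-8, against 25.0 and 8.81 CPM in WT. In 6% oxygen Per1 was lower in KO, at 14.8 to 21.1 CPM against 44.8 to 84.3 CPM at CT4-8. At CT16-20 it was 15.6 to 31.1 CPM in KO and 61.3 to 76.3 CPM in WT. Per2 in 6% oxygen was higher in KO at CT4-8 (18.9 to 30.7 CPM, against 2.91 to 10.8 CPM in WT) and overlapped at CT16-20. In air both genes overlapped between the labels at both times. Which parts of the genes were deleted is not given in the sources used here, so these counts do not check the genotype, which is taken as labelled.

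In lung at ZT4-8, 4 of the 9 genes rose in 6% oxygen and none fell, where 22.6% of the 12150 genes tested were called and 11.2% rose. The 3 inhibitors and Icam1 made up the rise, and the subunits and cytokines did not pass the test. Nfkbia, the inhibitor that NF-kB itself induces, had 1344, 1715, 1439 and 1372 CPM in 6% oxygen, against 400.1, 380.1, 428 and 408 CPM in air. The groups were far apart, and the fold change was 1.86 ± 0.10 (adjusted p = 3.17e-12), a 3.63-fold rise. Tnfaip3 had 83.4, 104, 112 and 122 CPM in 6% oxygen, against 27.1, 24.3, 23.4 and 23.8 CPM in air, with a fold change of 2.10 ± 0.16 (adjusted p = 4.42e-10). Every Tnfaip3 value in low oxygen was above 3 times the highest air value. Nfkbiz had 16.6, 14.8, 20.3 and 22.4 CPM in 6% oxygen, against 9.41, 7.71, 10.9 and 10.5 CPM in air, again without overlap, and rose by 0.94 ± 0.20 (adjusted p = 0.00108).

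Icam1 rose less. Its levels at ZT4-8 were 637, 595, 555 and 593 CPM in 6% oxygen, against 514, 437, 419 and 449 CPM in air. The groups did not overlap, and the fold change was 0.39 ± 0.13 (adjusted p = 0.0318). That call was lost without the 3 air libraries with muscle genes (0.31, adjusted p = 0.0934), with total counts as the only scaling (0.32, adjusted p = 0.0718), and in 6 of 8 refits that left out a library.

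Of the cytokines at ZT4-8, Ccl2 had 8.62, 10.8, 7.38 and 8.23 CPM in 6% oxygen, against 6.37, 3.85, 6.41 and 1.37 CPM in air. All 4 values in low oxygen were above those in air, but its fold change of 0.97 ± 0.40 did not pass the test (adjusted p = 0.0864) in the fit over 4 groups, and did in a fit of these 2 groups alone (adjusted p = 0.0422). Il1b averaged 52.2 ± 20.4 CPM in 6% oxygen and 44.8 ± 11.6 CPM in air (SD, n = 4 each), and Cxcl1 averaged 4.74 ± 1.87 CPM in 6% oxygen and 4.30 ± 0.723 CPM in air. Both overlapped between the groups, and their fold changes of 0.23 and 0.16 did not pass. Of the subunits, Nfkb1 averaged 138 ± 16.1 CPM in 6% oxygen and 128 ± 7.07 CPM in air, and Nfkb2 averaged 51.4 ± 8.54 CPM in 6% oxygen and 61.4 ± 7.87 CPM in air, with fold changes of 0.11 and -0.26 that did not pass.

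At ZT16-20, 3 of the 9 genes rose in lung and none fell, where 21.2% of genes were called and 10.3% rose. Nfkbia had 1322, 1216, 1389 and 1268 CPM in 6% oxygen, against 366, 355, 444 and 381 CPM in air, and rose by 1.75 ± 0.10 (adjusted p = 7.85e-12). Tnfaip3 had 97.9, 90.7, 89.4 and 67.3 CPM in 6% oxygen, against 16.6, 29.0, 24.1 and 28.1 CPM in air, and rose by 1.84 ± 0.16 (adjusted p = 8.31e-09). Neither gene overlapped between the groups. Icam1 had 497, 590, 550 and 501 CPM in 6% oxygen, against 351, 431, 436 and 258 CPM in air, and rose by 0.54 ± 0.13 (adjusted p = 0.00413), the lowest air value being that of library D. Nfkbiz, with a fold change of 0.52 ± 0.20, did not pass (adjusted p = 0.0691), and neither did Ccl2 at 0.96.

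Whether Ccl2 and Nfkbiz were called turned on single libraries, while Nfkbia, Tnfaip3 and Icam1 were called in each refit without a library. Ccl2 had 6.97, 8.25, 6.41 and 6.84 CPM in 6% oxygen, against 2.14, 4.14, 1.05 and 7.80 CPM in air libraries A to D. Air library D held the highest of the air values, above 3 of the 4 libraries in low oxygen. Without D, Ccl2 rose by 1.74 (adjusted p = 0.0067) and Nfkbiz by 0.65 (adjusted p = 0.0374), so that 5 of 9 genes rose, and without all 3 such libraries the same genes were called. Nfkbiz was also called without low-oxygen library D (0.63, adjusted p = 0.0353). Air library D was one of the 3 with muscle genes. The part of the muscle and epithelial RNA in this difference was not tested.

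**Figure D1:**
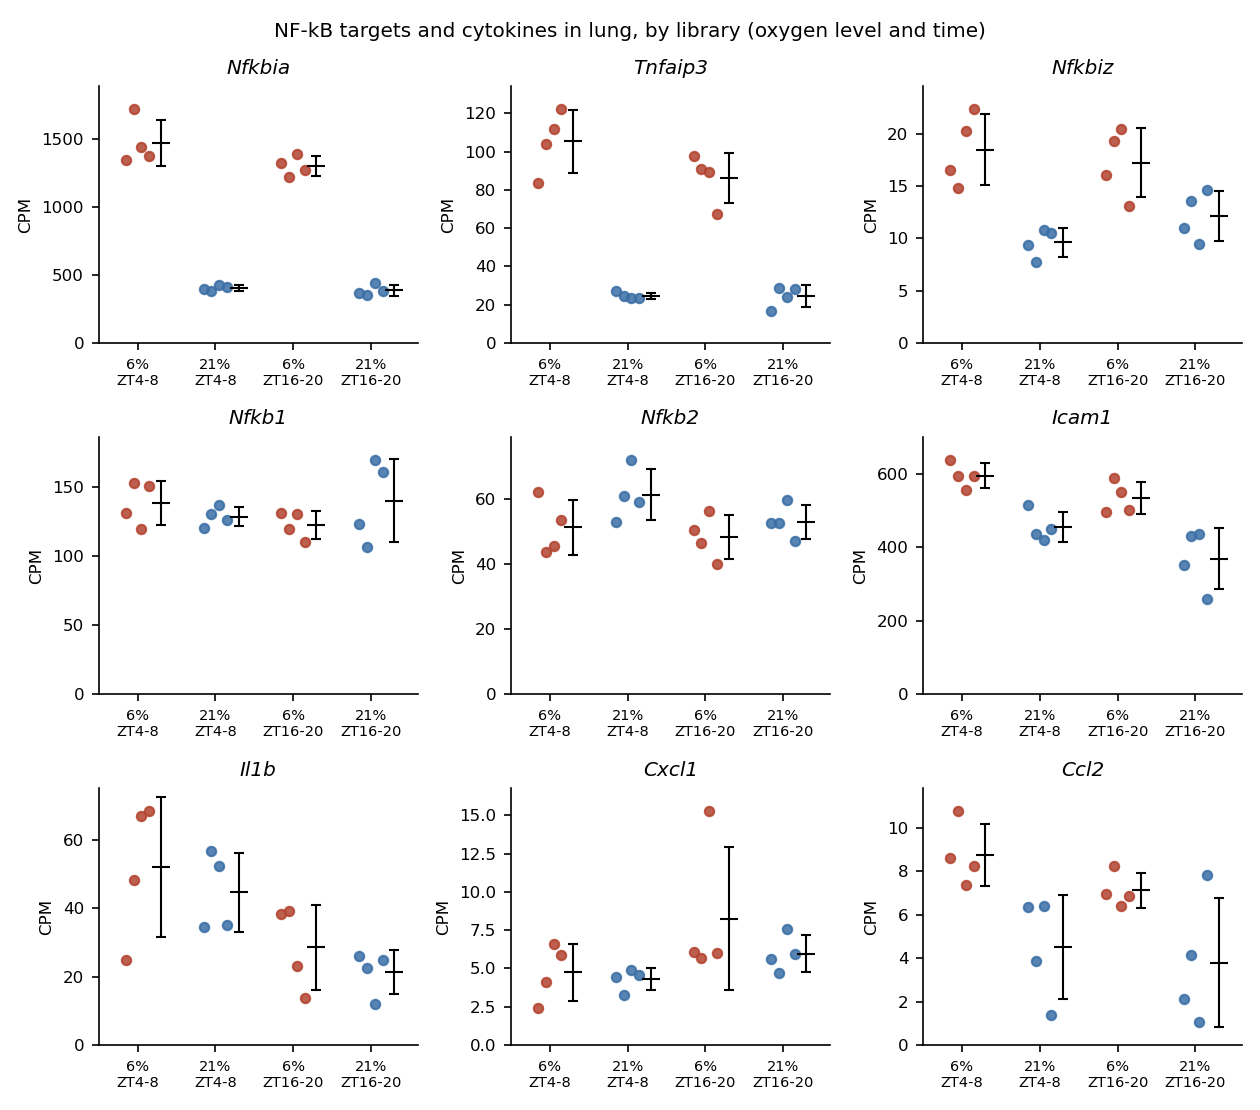
Levels of the 9 genes in each lung library, in CPM on linear axes from 0, in 6% oxygen (red) and in air (21%, blue) at ZT4-8 and ZT16-20, with the mean ± SD of 4 libraries beside the points. Nfkbia and Tnfaip3 separate the oxygen levels at both times, with Nfkbia between 1216 and 1715 CPM in 6% oxygen and between 355 and 444 CPM in air, while Nfkb1, Nfkb2, Il1b and Cxcl1 overlap.

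No difference between times of day was called for these genes in lung by edgeR's test or by DESeq2. The oxygen response at ZT16-20 minus that at ZT4-8 was called for 0 of 9 genes, with 0 at an unadjusted p under 0.05, where 0.255% of genes were called. ZT16-20 against ZT4-8 in air was called for 0 of 9, with 2 at an unadjusted p under 0.05, where 0.938% were. Il1b was the nearest in air, with 21.4 ± 6.44 CPM at ZT16-20 and 44.8 ± 11.6 CPM at ZT4-8 (SD, n = 4 each). Its groups did not overlap and its fold change was -1.07 ± 0.39, but the adjusted p of edgeR's test was 0.27.

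Sums of cell type markers differed with oxygen in lung for some cell types and overlapped for others. The summed level of 10 endothelial markers ran from 5500 to 6497 CPM in 6% oxygen and from 3775 to 4236 CPM in air at ZT4-8, and at ZT16-20 from 4163 to 5413 CPM in 6% oxygen and from 2987 to 3778 CPM in air. Of these 10, 3 rose at ZT4-8, led by the tight junction gene Cldn5 (2092 CPM in 6% oxygen, 698 CPM in air), and 2 at ZT16-20. Cldn5 alone made up most of the difference in the sum at ZT4-8, where the medians were 5915 CPM in 6% oxygen and 3928 CPM in air. The sum of 10 neutrophil markers overlapped at ZT4-8 (410 to 713 CPM in 6% oxygen, 383 to 637 CPM in air), whereas at ZT16-20 it was 344 to 558 CPM in 6% oxygen and 124 to 274 CPM in air, with 6 of 10 markers higher. Sums of 11 listed monocyte and macrophage markers overlapped at both times (7400 to 12610 CPM in 6% oxygen and 7740 to 13780 CPM in air at ZT4-8). The sum of 10 lymphocyte markers was 181 to 198 CPM in 6% oxygen and 135 to 173 CPM in air at ZT4-8, without overlap, and 118 to 206 CPM in 6% oxygen and 65.6 to 159.7 CPM in air at ZT16-20. No listed marker of these 4 cell types was at 0 in a whole group, and their part in the rises of Nfkbia, Tnfaip3, Nfkbiz and Icam1 was not tested.

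The remaining pathway genes in lung moved in mixed directions. Among all genes tested, 22.6% were called at ZT4-8 and 11.2% rose, and 21.2% were called at ZT16-20 and 10.3% rose. These shares apply to all the lung lists here, and some of the counts below lie near them. Of the other DNA-binding subunits tested, Relb and Rela, the main activating subunit, both rose at ZT4-8, by 0.70 ± 0.17 (66.9 CPM in 6% oxygen, 41.3 CPM in air, adjusted p = 0.00413) and 0.54 ± 0.16 (218 CPM in 6% oxygen, 150.2 CPM in air, adjusted p = 0.0201), and Rela rose at ZT16-20. Of 8 other inhibitors, 1 rose at ZT4-8 (Otulin, a deubiquitinase, by 0.39) and 2 at ZT16-20 (Nfkbib and Otulin). Of 8 activating kinases, Tbk1 rose by 0.55 and Map3k14, a kinase of the alternative pathway, fell by 0.66 at ZT4-8, and Tbk1 rose at ZT16-20. Of 14 receptors and adaptors, 4 rose and 4 fell at ZT4-8. The signalling adaptors Traf6 and Irak2 rose by 0.91 and 0.93, while Traf1, itself a known NF-kB target, and Traf2 fell by 1.05 and 0.94.

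Among 28 other genes known to be induced through NF-kB, 14 rose and 4 fell in lung at ZT4-8, with a median fold change of 0.63, beside a median of -0.00112 over all genes tested. At ZT16-20, 9 rose and 4 fell, with a median of 0.31. F3, which encodes the tissue factor that starts coagulation, averaged 326 CPM in 6% oxygen and 60.4 CPM in air at ZT4-8 and rose by 2.43 ± 0.11 (adjusted p = 1.94e-13), and at ZT16-20 it rose by 3.04. Ier3, a stress-induced survival gene, averaged 1961 CPM in 6% oxygen and 472 CPM in air at ZT4-8 and rose by 2.05 ± 0.13. Bcl2l1, which protects cells from apoptosis, rose by 1.37 and Lif, a cytokine of the interleukin 6 family, by 2.05. The genes that fell at both times were Traf1, Csf1, Csf2 and Irf1, which encode an adaptor, growth factors of macrophages and granulocytes, and an interferon-pathway transcription factor. They were picked out after their values were seen. Lists share genes: Traf1 also counts among the adaptors, Relb among the subunits and Zc3h12a among the decay regulators.

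**Figure D2:**
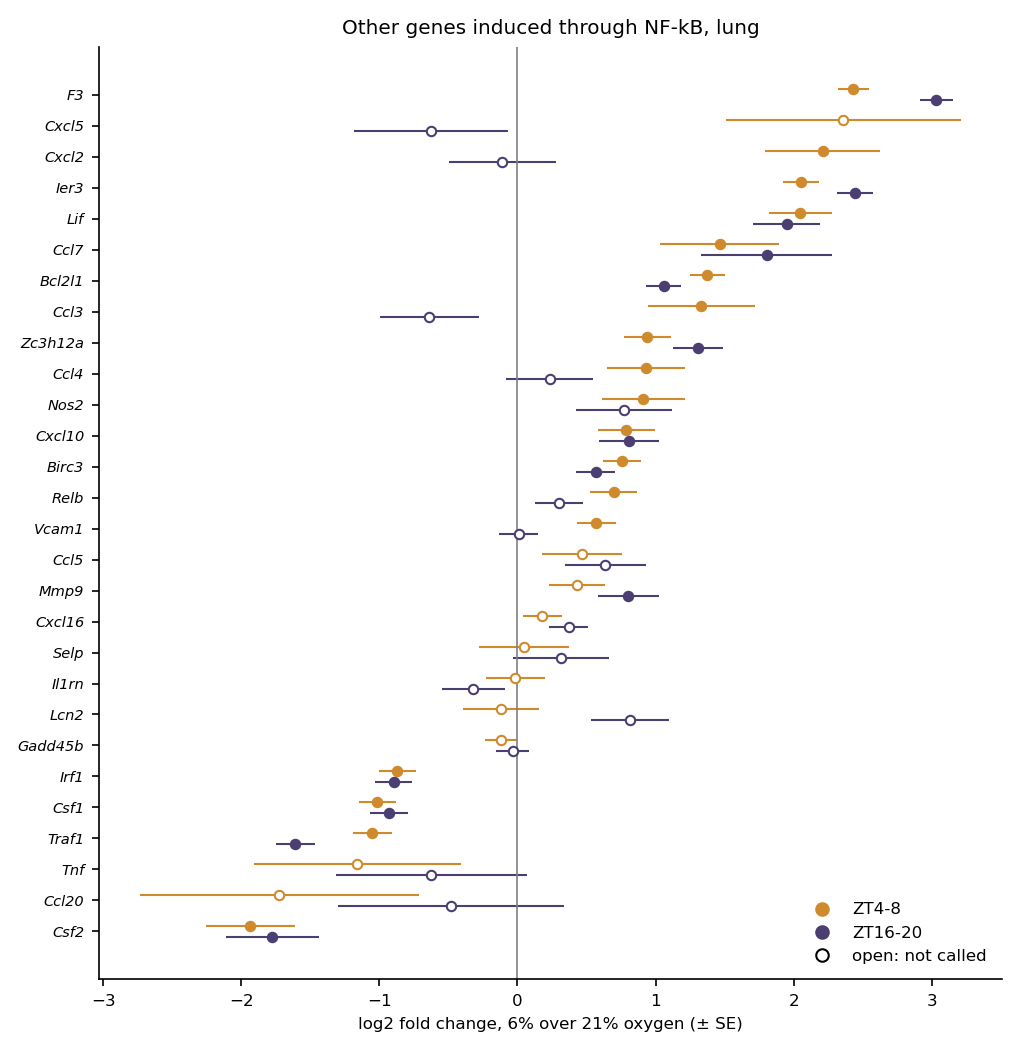
Log2 fold change (6% over 21% oxygen, ± SE) of 28 other genes known to be induced through NF-kB, tested in lung at ZT4-8 (orange) and ZT16-20 (purple), with filled points for an adjusted p under 0.05. F3, Ier3 and Lif lie near or above 2 at both times, while Traf1, Csf1, Csf2 and Irf1 lie below 0 at both times.

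Of 6 tested genes that regulate the decay of cytokine mRNA, 3 rose in lung at ZT4-8 and none fell, and at ZT16-20 3 rose and 2 fell. Zfp36, whose protein destabilises the mRNAs of several cytokines, averaged 282 CPM in 6% oxygen and 80.6 CPM in air at ZT4-8 and rose by 1.80 ± 0.14 (adjusted p = 1.93e-09). Zc3h12a, an endonuclease that cleaves such mRNAs, rose by 0.94 at ZT4-8 and 1.31 at ZT16-20. Socs3, a feedback inhibitor of interleukin 6 signalling, rose by 1.26 ± 0.11 at ZT4-8 (196 CPM in 6% oxygen, 81.7 CPM in air) and was the only one of 10 tested genes of the interleukin 6 and STAT3 acute phase list to do so, while at ZT16-20 Socs3 and Stat3 rose. Of the 9 receptors for the cytokines, Il1r1 and Il1r2 rose and the chemokine receptor Ccr2 fell at ZT4-8, where Il1r2 is also a neutrophil marker and Ccr2 a monocyte marker.

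Immediate early genes and genes induced by glucocorticoids rose widely in the same libraries: 9 of 9 and 5 of 8 at ZT4-8, and 7 of 9 and 6 of 8 at ZT16-20. The stress transcription factor Atf3 averaged 268 CPM in 6% oxygen and 16.5 CPM in air at ZT4-8. Over the 16 lung libraries, the genes whose log2 CPM ran closest to that of Nfkbia, out of 12150, were Atf3 (Pearson r = 0.988), Klf4 and Csrnp1 (0.987 each). Closest to Tnfaip3 were Prkab1 and Spry4 (0.985 each) and Sgk1 (0.981), and Nfkbia and Tnfaip3 themselves had r = 0.971. These libraries share their oxygen groups, which enter every such correlation, and the values describe the pattern only. Icam1 ran closest to Ddx47 (0.941), Nfkbiz to Mtfr1l (0.922), Il1b to Clec4d (0.892), Cxcl1 to Chil3 (0.88) and Ccl2 to Gucy1b3 (0.875), while Nfkb2 and Nfkb1 reached 0.831 and 0.793 with Tnfaip2 and BC052040.

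In kidney, 8 of the genes could be tested, Il1b being too low, with group means between 0.71 and 2.02 CPM. At ZT4-8, 3 of 8 rose in 6% oxygen and none fell, where 5.28% of genes were called and 2.79% rose. Nfkbia had 250.1, 296, 280.3 and 269 CPM in 6% oxygen, against 92.3, 99.2, 94.5 and 115 CPM in air, and rose by 1.45 ± 0.12 (adjusted p = 1.58e-07). Cxcl1 had 5.99, 12.9, 9.37 and 7.11 CPM in 6% oxygen, against 3.39, 3.08, 3.40 and 2.88 CPM in air, and rose by 1.44 ± 0.38 (adjusted p = 0.0252). Tnfaip3 had 10.7, 13.3, 17.6 and 21.3 CPM in 6% oxygen, against 8.49, 5.14, 9.34 and 6.62 CPM in air, and rose by 1.10 ± 0.29 (adjusted p = 0.0296). None of these 3 genes overlapped between the groups. Only Nfkbia was called in each refit without a library, since the calls of Cxcl1 and Tnfaip3 were both lost without air library B (adjusted p = 0.0673 and 0.105), air library D (0.0654 and 0.0766) or low-oxygen library C (0.0645 and 0.0812), that of Cxcl1 without low-oxygen library B (0.0781), and that of Tnfaip3 without low-oxygen library D (0.117). The Tnfaip3 call was also lost in a fit of only these 2 groups (1.09, adjusted p = 0.056) and with the replicate letter as a block (1.09, adjusted p = 0.0545).

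At ZT16-20 in kidney, only Nfkbia of 8 genes rose, where 6.9% of genes were called and 3.44% rose. It had 232, 259.9, 258 and 243 CPM in 6% oxygen, against 87.8, 69.7, 100.1 and 66.8 CPM in air (1.61 ± 0.12, adjusted p = 3.04e-08). Cxcl1 averaged 4.60 ± 2.50 CPM in 6% oxygen and 2.63 ± 1.27 CPM in air, and Tnfaip3 averaged 11.1 ± 4.46 CPM in 6% oxygen and 7.20 ± 2.21 CPM in air (SD, n = 4 each), with overlap in both. The response at ZT16-20 minus that at ZT4-8 was called for 0 of 8 genes by edgeR's test or by DESeq2, with 0 at an unadjusted p under 0.05, where 0.368% of all genes were called, so the difference in calls between times is not itself shown. ZT16-20 against ZT4-8 in air was called for 0 of 8 genes by either tool, with 2 at an unadjusted p under 0.05, where 1.09% were called. Ccl2 had a fold change below 0 in kidney, with 1.99 ± 1.21 CPM in 6% oxygen and 4.75 ± 1.51 CPM in air at ZT4-8, and did not pass (-1.27, adjusted p = 0.151). Of 15 other NF-kB targets, 4 rose at ZT4-8 and 3 at ZT16-20, led by Ier3 (1.30 and 1.82) and Gadd45b, a stress sensor (1.79 and 1.27), and none fell.

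In liver of LD mice Nfkbia and Tnfaip3 rose and Cxcl1 fell. At ZT4-8, 2 of 9 genes rose and 1 fell, where 9.64% of genes were called (5.43% higher, 4.21% lower), and the same genes were called at ZT16-20, where 20.3% were (9.98% higher, 10.3% lower). Cxcl1 had 8.58, 9.40, 2.98 and 8.42 CPM in 6% oxygen at ZT4-8, against 21.9, 45.4, 15.3 and 32.9 CPM in air. The groups did not overlap, and the level fell by 1.98 ± 0.32 on the log2 scale (adjusted p = 0.000278). At ZT16-20 Cxcl1 had 5.42, 3.44, 2.78 and 4.26 CPM in 6% oxygen, against 16.6, 11.5, 11.4 and 11.9 CPM in air, and fell by 1.66 ± 0.37 (adjusted p = 0.00275). No refit without a library changed these calls. The related neutrophil chemokine Cxcl2 moved the other way in the same livers, rising by 2.26 ± 0.59 at ZT4-8 (4.68 CPM in 6% oxygen, 0.983 CPM in air, adjusted p = 0.00968) and by 2.15 ± 0.69 at ZT16-20 (2.95 CPM in 6% oxygen, 0.591 CPM in air, with overlap).

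Nfkbia in LD liver had 169, 160.1, 153 and 174 CPM in 6% oxygen at ZT4-8, against 71.7, 62.3, 69.1 and 74.9 CPM in air, a rise of 1.24 ± 0.13 (adjusted p = 1.02e-06). At ZT16-20 it rose by 0.87 ± 0.13 (145 ± 26.2 CPM in 6% oxygen, 79.2 ± 10.7 CPM in air, SD, n = 4 each, adjusted p = 7.7e-05). Tnfaip3 had 15.1, 8.73, 11.1 and 11.2 CPM in 6% oxygen at ZT4-8, against 5.26, 5.43, 3.17 and 3.68 CPM in air, and rose by 1.41 ± 0.24 (adjusted p = 0.000307). At ZT16-20 its rise was 0.89 ± 0.25 (adjusted p = 0.0131). The groups of both genes were apart at both times. Nfkbiz, with fold changes of 0.77 at ZT4-8 and 0.73 at ZT16-20, did not pass (adjusted p = 0.138 and 0.128), nor did Nfkb1, Nfkb2, Icam1, Il1b and Ccl2 at either time.

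Cxcl1 was the only gene of the 9 with a called time difference in liver air, where 5.87% of genes were called and 2.68% were lower: 12.9 ± 2.51 CPM at ZT16-20 and 28.9 ± 13.2 CPM at ZT4-8 (SD, n = 4 each, -1.19 ± 0.30, adjusted p = 0.0218 by edgeR's test). The groups overlapped, and the call was lost in 5 of 8 refits without a library, namely without B or D of ZT4-8 (adjusted p = 0.0744 and 0.0646) and without B, C or D of ZT16-20 (0.0641, 0.0794 and 0.0611). The oxygen response at ZT16-20 minus that at ZT4-8 was called for 0 of 9 genes by edgeR's test or by DESeq2, with 0 at an unadjusted p under 0.05, where 2.07% of genes were called. Of 17 other NF-kB targets, 4 rose and 1 fell at each time, with Ier3 up by 3.89 and 3.91, Gadd45b up by 5.13 and 3.50 and Irf1 down by 1.42 and 1.46 at ZT4-8 and ZT16-20. Of 16 interleukin 6 and STAT3 acute phase genes, none was called at ZT4-8, and the fibrinogen genes Fga and Fgg fell at ZT16-20.

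**Figure D3:**
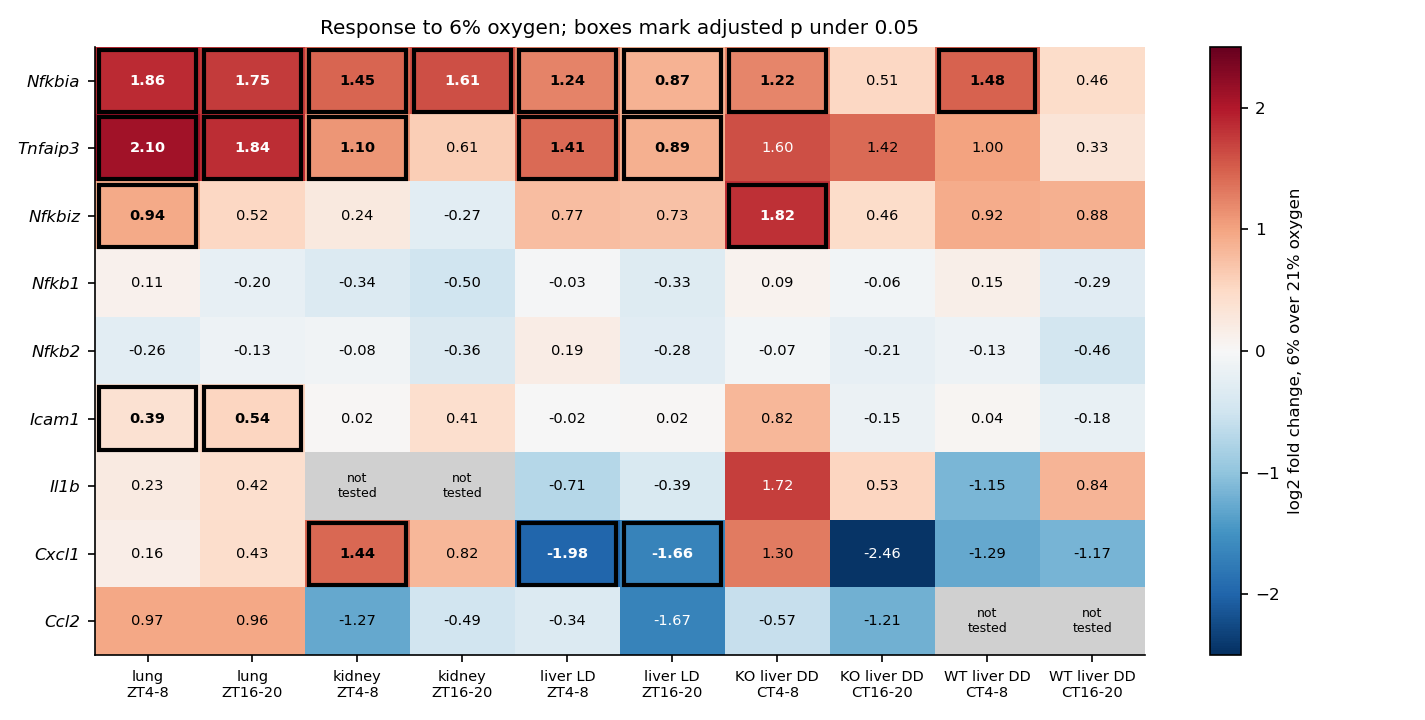
Log2 fold change of each gene (rows) in 6% over 21% oxygen in 10 comparisons (columns), with red above 0, blue below 0, black boxes for an adjusted p under 0.05 and grey where the gene was too low to test. Nfkbia was above 0 in all 10 comparisons and boxed in 8, Tnfaip3 was above 0 in all 10 and boxed in 5, and Cxcl1 was boxed above 0 in kidney and below 0 in LD liver.

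Over the 10 comparisons, Nfkbia rose in 8 (fold changes from 0.46 to 1.86), Tnfaip3 in 5 (0.33 to 2.10), and Nfkbiz and Icam1 in 2 each. Cxcl1 rose in 1 and fell in 2, while Nfkb1, Nfkb2, Il1b and Ccl2 were called in none of these fits. In a fit of only the libraries compared, Nfkb1 in kidney at ZT16-20 was called lower (-0.50, adjusted p = 0.033), with 23.3 to 34.5 CPM in 6% oxygen and 37.9 to 45.3 CPM in air, without overlap, beside -0.50 and an adjusted p of 0.122 in the fit of 4 groups. Nfkb1 stayed between -0.50 and 0.15 and Nfkb2 between -0.46 and 0.19.

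In constant darkness, the libraries labelled KO had 2 of 9 genes higher in 6% oxygen at CT4-8, where 5.58% of genes were called and 2.84% rose. Nfkbia had 351, 290.1, 221 and 278 CPM in 6% oxygen, against 128, 109, 129 and 127 CPM in air, and rose by 1.22 ± 0.15 (adjusted p = 2.53e-05). Nfkbiz had 27.5, 8.60, 15.6 and 31.9 CPM in 6% oxygen, against 5.41, 5.40, 6.18 and 6.30 CPM in air, and rose by 1.82 ± 0.38 (adjusted p = 0.00523). The libraries in 6% oxygen differed among themselves: Tnfaip3 was 22.9, 5.16, 9.68 and 34.6 CPM in libraries A to D, against 5.95, 6.48, 6.70 and 3.78 CPM in air. Libraries A and D were high and B lay within the air range, and the fold change of 1.60 did not pass (adjusted p = 0.0676), while DESeq2 called it (1.63, adjusted p = 0.0144) and so did the refit without library C (1.82, adjusted p = 0.048). Without library B, Tnfaip3 (1.92, adjusted p = 0.0037), Il1b (2.12, adjusted p = 0.0386) and Icam1 (1.12, adjusted p = 0.00725) were called too, so that 5 of 9 rose.

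Libraries A and D of the KO-labelled mice in 6% oxygen at CT4-8 also held the most Cxcl1. It was 112, 8.17, 16.4 and 91.8 CPM in libraries A to D, against 17.3, 24.8, 35.6 and 13.9 CPM in air, so that the range in 6% oxygen enclosed that in air (1.30 ± 0.93, adjusted p = 0.502). Il1b was 26.7, 1.29, 11.4 and 24.3 CPM in 6% oxygen and 2.16, 2.16, 7.22 and 7.55 CPM in air. Of 10 neutrophil markers, 3 were listed in both tables from darkness (S100a8, S100a9 and Csf3r), and their sum was 52.5, 12.9, 18.5 and 60.5 CPM in 6% oxygen, against 8.65, 7.56, 9.79 and 3.78 CPM in air. S100a8 and S100a9 each separated the oxygen groups. Csf3r did not, with 3.81, 0.43, 0.42 and 2.70 CPM in 6% oxygen, against 2.16, 3.24, 1.55 and 1.26 CPM in air. The sum was highest in A and D, and its part in the differences between these libraries was not tested.

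At CT16-20 in the KO-labelled libraries, 0 of 9 genes were called by edgeR's test, where 4.48% of genes were, while 3 had an unadjusted p under 0.05 and DESeq2 called 1 (Nfkbia, adjusted p = 0.0299). Nfkbia had 234, 241 and 187 CPM in 6% oxygen, against 142, 165, 157 and 155 CPM in air, without overlap (0.51 ± 0.16, adjusted p = 0.0632). Tnfaip3 had 13.7, 19.8 and 10.6 CPM in 6% oxygen, against 3.94, 8.31, 5.96 and 4.20 CPM in air, also without overlap (1.42 ± 0.53, adjusted p = 0.142). In a fit of only the libraries compared, edgeR's test called Tnfaip3 (1.42, adjusted p = 0.0163). Cxcl1 had 32.8, 20.3 and 9.57 CPM in 6% oxygen, against 32.9, 199.5, 207 and 26.8 CPM in air (-2.46, adjusted p = 0.213). The high values were those of air libraries B and C, where the 3 neutrophil markers summed to 24.2 and 67.7 CPM, against 8.55 and 8.92 CPM in A and D. Total counts of the KO-labelled libraries at CT16-20 ran from 2.8 to 3.77 M in 6% oxygen and from 1.44 to 2.02 M in air.

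**Figure D4:**
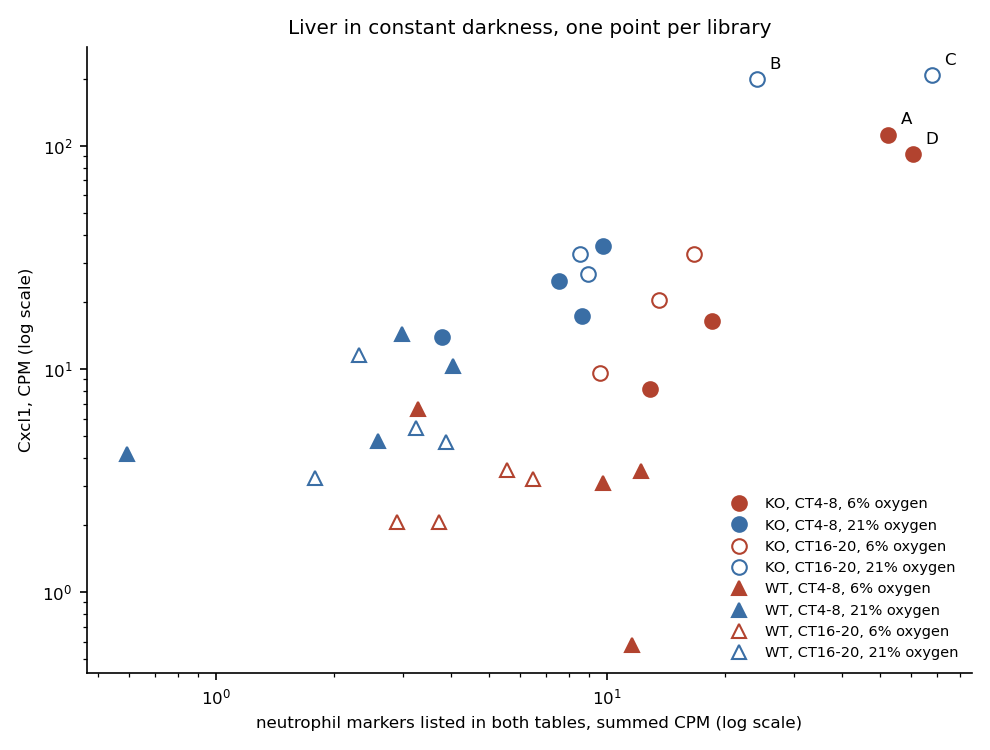
Cxcl1 (y axis) against the sum of the 3 neutrophil markers listed in both tables from darkness (x axis), in CPM on log axes, with a point for each of 31 liver libraries, KO as circles and WT as triangles. The lettered points are the 4 KO-labelled libraries above 80 CPM of Cxcl1, A and D in 6% oxygen at CT4-8 and B and C in air at CT16-20, whose marker sums of 24.2 to 67.7 CPM exceed those of all other libraries.

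In WT liver in darkness, 1 of 8 genes rose in 6% oxygen at CT4-8, where 11.8% of genes were called and 5.71% rose, Ccl2 being too low to test. Nfkbia had 216, 271, 196 and 243 CPM in 6% oxygen, against 65.2, 84.6, 108 and 74.5 CPM in air, and rose by 1.48 ± 0.16 (adjusted p = 8.46e-07). Cxcl1 had 3.49, 0.58, 3.08 and 6.59 CPM in 6% oxygen, against 4.15, 4.75, 10.3 and 14.3 CPM in air, below 0 as in LD liver but with overlap and not called (-1.29 ± 0.51, adjusted p = 0.0947). With the replicate letter as a block, edgeR's test called Cxcl1 lower (-1.29, adjusted p = 0.0445). At CT16-20, 0 of 8 genes were called by edgeR's test, where 9.83% of genes were, while 3 had an unadjusted p under 0.05 and DESeq2 called 1 (Nfkbia, adjusted p = 0.0385). Nfkbiz, at 0.88 (adjusted p = 0.0731), was called without air library D (1.11, adjusted p = 0.0422). Nfkbia had 171, 158, 146 and 159 CPM in 6% oxygen, against 114, 129, 116 and 102 CPM in air, without overlap (0.46 ± 0.15, adjusted p = 0.0637).

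The Nfkbia response in WT liver in darkness differed between the times. At CT16-20 the fold change was 0.46 and at CT4-8 it was 1.48, a difference of -1.02 ± 0.22 (adjusted p = 0.0184), where 1.6% of genes were called and 0.799% were lower, and the call stood in each of 16 refits without a library. It was the only 1 of 8 genes called. In the KO-labelled libraries the response differed by a call in 0 of 9 genes by edgeR's test or by DESeq2. There 3 had an unadjusted p under 0.05, and 0.0117% of genes were called. Nfkbia in KO averaged 285 CPM in 6% oxygen and 123 CPM in air at CT4-8, and 221 and 155 CPM at CT16-20. Its response was thus also smaller at CT16-20, and whether the time difference itself differs between the genotypes was not tested. CT16-20 against CT4-8 in air was called for 0 of 9 genes in KO-labelled liver and 0 of 8 in WT liver by either tool, with 3 and 2 at an unadjusted p under 0.05, where 0.0235% and 3.66% of genes were called. Nfkbia in WT air (0.47, adjusted p = 0.0995) was called without library C of CT4-8 (0.64, adjusted p = 0.0257).

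The KO-labelled livers in air had more Nfkbia than the WT livers at CT4-8, where 1 of 9 genes was called in the joint fit of both genotypes, against 4.51% of all genes called and 2.26% higher. Nfkbia averaged 123 ± 9.67 CPM in KO and 82.4 ± 18.8 CPM in WT (SD, n = 4 each, 0.58 ± 0.15, adjusted p = 0.0218 by edgeR's test), and the call was lost without KO library A or C (adjusted p = 0.0641 and 0.0639) or WT library A or D (0.0645 and 0.0713). At CT16-20, where 2% of genes were called and 0.965% were higher, Nfkbiz and Cxcl1 were higher. Cxcl1 averaged 117 ± 101 CPM in KO and 6.29 ± 3.80 CPM in WT (4.24 ± 0.85, adjusted p = 0.0043), without overlap and with libraries B and C far above the rest. The 3 neutrophil markers in the same libraries summed to 8.55 to 67.7 CPM in KO and 1.80 to 3.87 CPM in WT, also without overlap. S100a8 and S100a9 were each apart between the genotypes, while Csf3r overlapped (1.315 to 4.875 CPM in KO, 0.3591 to 3.007 CPM in WT). The part of these markers in the Cxcl1 difference was not tested. Nfkbiz averaged 11.9 ± 4.85 CPM in KO and 4.67 ± 2.05 CPM in WT (1.33 ± 0.37, adjusted p = 0.0404), a call lost without KO library B or C (adjusted p = 0.0928 and 0.261) or WT library A, B or C (0.143, 0.0671 and 0.123). Genotype and count table coincide, so a genotype difference in air and a batch difference cannot be told apart.

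The oxygen response of KO-labelled minus WT liver was called for 0 of 9 genes at either time by edgeR's test or by DESeq2, with 1 at CT4-8 and 0 at CT16-20 at an unadjusted p under 0.05, where 2.41% and 0.0444% of genes were called at CT4-8 and CT16-20. Il1b came nearest at CT4-8 (1.73 in KO, -1.14 in WT, a difference of 2.87 ± 1.08, adjusted p = 0.139), and without KO library B in 6% oxygen it was called (3.27, adjusted p = 0.0188). Of the other NF-kB targets, 3 of 17 rose at CT4-8 in the KO-labelled libraries, led by Gadd45b (3.73), and 5 of 15 rose and 1 fell in WT libraries, again led by Gadd45b (4.34).

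**Figure D5:**
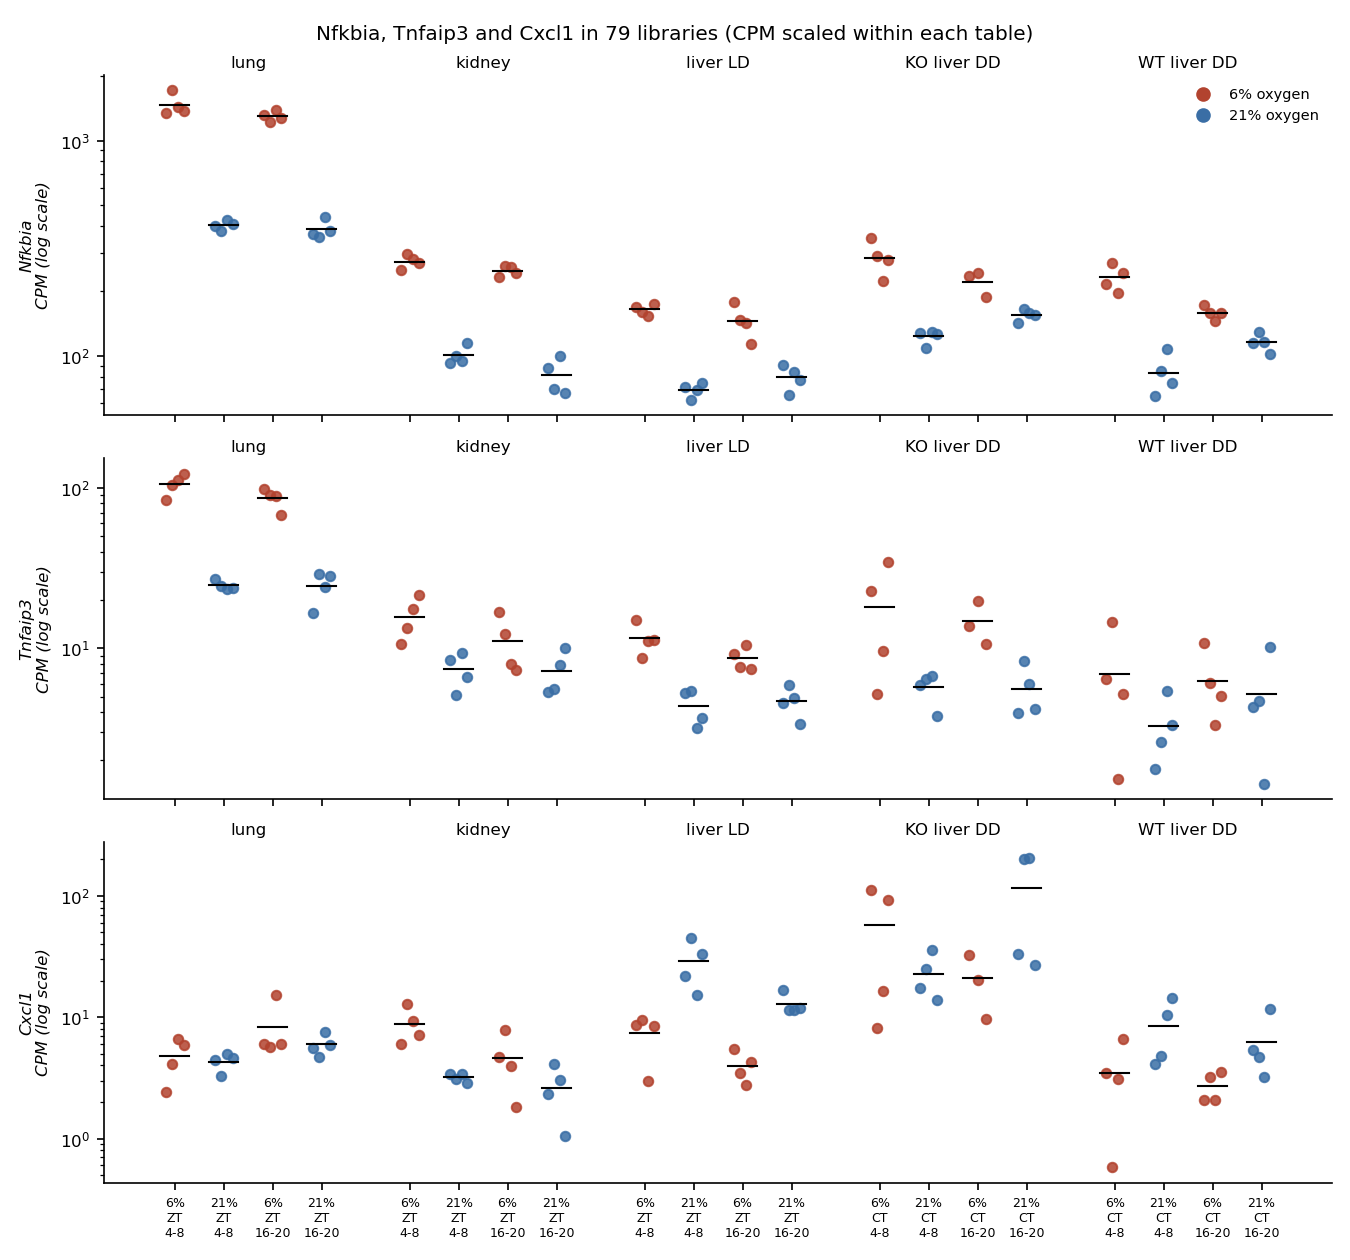
Nfkbia, Tnfaip3 and Cxcl1 in each of 79 libraries, in CPM on log axes scaled within each table, in 6% oxygen (red) and air (blue), with bars at the group means. Nfkbia lies higher in 6% oxygen in all 10 pairs of groups without overlap, while Cxcl1 lies higher in air in LD liver and spreads from 8.17 to 207 CPM in the KO-labelled libraries.

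Levels were compared between tissues of the LD mice in a joint fit of their 3 tables, whose common scaling gives other CPM than those above. The 3 tissues came from the same mice, which this fit leaves out. The labels do not say which libraries share a mouse. Same-letter libraries had median correlations of -0.0041 for lung with liver and 0.0457 for lung with kidney, with 0 and 3 of 16 pairs over 0.1. The letters may therefore not mark the same mouse. With libraries of the same time, oxygen and letter taken as 1 mouse and entered as a block, the calls changed for 2 genes. Ccl2 in lung against liver in air was lost (-0.89, adjusted p = 0.0538), and Il1b in the response of lung minus kidney was gained (1.60, adjusted p = 0.0357). In air, over both times, 9 of 9 genes differed between lung and liver, where 79% of genes were called (40.6% higher in lung, 38.4% lower). Icam1 averaged 306 ± 56.5 CPM in lung and 27.4 ± 5.80 CPM in liver (SD, n = 8 each, 3.47 ± 0.14, adjusted p = 2.98e-27 by edgeR's test). Nfkbia averaged 294 ± 24.3 CPM in lung and 132 ± 17.2 CPM in liver (1.16 ± 0.09), and Il1b, Nfkb1, Tnfaip3, Nfkb2 and Nfkbiz were higher in lung by 1.61, 1.30, 1.17, 0.94 and 0.59. Cxcl1 was lower, at 3.82 ± 0.94 CPM in lung and 36.9 ± 21.5 CPM in liver (-3.14 ± 0.24). Ccl2 was lower in lung as well (-0.88 ± 0.41, adjusted p = 0.0459), but with total counts as the only scaling it lay above 0 (0.42, adjusted p = 0.337), a scaling that moves the median of all genes to 1.35, against 0.0501 with the scaling used. The Ccl2 call was also lost with RLE scaling (adjusted p = 0.0599), with DESeq2 (0.0935) and in 9 of 16 refits without a library. The directions of the other 8 genes did not depend on it.

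Between lung and kidney in air, 7 of 9 genes were higher in lung, where 75.9% of genes were called and 38.8% were higher. Icam1 averaged 306 ± 56.5 CPM in lung and 20.6 ± 5.28 CPM in kidney (SD, n = 8 each, 3.90 ± 0.14), and Il1b averaged 24.7 ± 11.5 CPM in lung and 1.61 ± 0.627 CPM in kidney (3.80 ± 0.37). Nfkbia was higher by 1.89 ± 0.09. Cxcl1 and Ccl2 did not pass, with fold changes of 0.58 and -0.16, although Cxcl1 was called with DESeq2 (0.60, adjusted p = 0.049) and with total counts only (0.90, adjusted p = 0.00596).

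The log2 oxygen response, averaged over both times, was called as higher in lung than in liver for 4 of 9 genes, where 15.9% of genes were called and 9.03% were higher. For Cxcl1 and Ccl2 the responses of the tissues had opposite signs, so higher does not mean a larger response in lung. For Nfkbia it was 1.84 in lung and 1.06 in liver, a difference of 0.78 ± 0.12 (adjusted p = 6.55e-06), and for Tnfaip3 it was 2.01 in lung and 1.16 in liver (0.84 ± 0.23, adjusted p = 0.00765). Cxcl1 differed most, with 0.33 in lung and -1.82 in liver (2.15 ± 0.35, adjusted p = 1.06e-05). Ccl2 was at 1.00 in lung and -0.99 in liver (1.99 ± 0.63, adjusted p = 0.0185), and that call was lost without liver library C in air at ZT16-20 (1.75, adjusted p = 0.0526).

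Against kidney, the log2 response was called as higher in lung for 2 of 9 genes, where 8.22% of genes were called and 4.86% were higher. Tnfaip3 had 2.01 in lung and 0.85 in kidney (1.15 ± 0.23, adjusted p = 0.000385). Ccl2 had 1.00 in lung and -0.88 in kidney (1.88 ± 0.62, adjusted p = 0.0447), and this call was lost in 25 of 32 refits without a library, with DESeq2 (0.051) and with total counts only (0.0643). Il1b, at 0.36 in lung and -1.26 in kidney, did not pass (1.62 ± 0.68, adjusted p = 0.102), but was called with DESeq2 (1.64, adjusted p = 0.0282). The Nfkbia responses, 1.84 in lung and 1.53 in kidney, differed by 0.31 ± 0.12 (adjusted p = 0.113).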

How the data were processed

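Bulk RNA was sequenced from lung, kidney and liver, and the authors deposited 5 tables of raw counts per gene, 1 for each tissue in light-dark and 1 for each genotype in darkness. Per the submitters' processing notes, the mm10 build was used along with STAR, HTSeq, cutadapt and bcl2fastq. For tool versions, annotation, strand setting and molecular identifiers, nothing is given in the sources used here. All per-sample columns were matched to samples by name, and 0 were left unused.

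Each table was filtered with filterByExpr (minimum count 10, minimum total 15), scaled by TMM and fitted with edgeR 4.0.16 (limma 3.58.1, R 4.3.3) by the robust quasi-likelihood test over its 4 groups, with Benjamini-Hochberg adjustment over all genes. Joint fits covered both genotypes and the 3 tissues. The script was tested on simulated data. Median depth was 3.02 M counts per library, so that genes at a few CPM rest on few reads (Ccl2 on 4 to 42 in lung). Replicates carry letters within a group and were taken as separate mice, which the labels do not state. No libraries were identical, and all 117 pairs within groups differed by more than sampling noise (chi-square per degree of freedom from 2.31 to 31.3).

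The members and gene lists were chosen with earlier results of these data known, and the muscle and epithelium lists after these libraries were seen. All 10 members were followed in every table. From each other list up to 4 genes were named per comparison, by smallest adjusted p among those called, and the 3 genes most correlated with each member were taken in lung (log2(CPM + 1)), the first of which is printed for most. Alternatives were RLE scaling, DESeq2 1.42.0, no filter, only the libraries compared, a block by replicate letter, leaving out each library and, added after seeing the data, total counts only and leaving out 3 lung libraries. Promoter windows came from RefSeq (GRCm38.p6) and gene positions from GENCODE vM21.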

Additional observations from a re-analysis of the deposited data

Results flagged for a closer look

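Among 163 sets of values, each of a gene in a group of 4 libraries, 5 held a library far from the other 3. Chance flags about 1 in 20 such sets, which share libraries and are not independent. Cxcl1 was 15.3 CPM in lung library C in 6% oxygen at ZT16-20, against 5.71 to 6.06 CPM in the others. In LD liver it was 2.98 CPM in library C in 6% oxygen at ZT4-8, against 8.42 to 9.40 CPM, and 16.6 CPM in library A in air at ZT16-20, against 11.4 to 11.9 CPM. Il1b was 5.1 CPM in WT library D in darkness in air at CT16-20, against 1.08 to 1.72 CPM. Nfkbia was 109 CPM in KO-labelled library B in air at CT4-8, against 127 to 129 CPM.

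Of 79 tested differences between oxygen responses, 7 passed the test. Among all genes, 1.6% were called for time in WT liver in darkness, 15.9% for lung minus liver and 8.22% for lung minus kidney. In the comparisons where none of these genes passed, the share ran from 0.0117% to 2.41%. The Nfkbia response at CT16-20 minus that at CT4-8 was -1.02 in WT liver in darkness. The response in lung minus that in liver was 0.78 for Nfkbia, 0.84 for Tnfaip3, 2.15 for Cxcl1 and 1.99 for Ccl2. The response in lung minus that in kidney was 1.15 for Tnfaip3 and 1.88 for Ccl2.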

How the results depend on the processing

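The number of the genes called stayed within 1.5 times its value in all 28 comparisons under RLE scaling and without the filter on low counts. With only the libraries compared it was 2 in kidney at ZT16-20 (1 in the fit of 4 groups, Nfkb1 being the gene gained, as lower). It was 1 in KO-labelled liver at CT16-20 (0, Tnfaip3 being gained) and 1 in WT liver in darkness at CT16-20 (0, Nfkbia being gained). DESeq2 gave 1 and 1 in these last 2, Nfkbia in both. With total counts only it was 1 in KO-labelled liver at CT16-20 (0) and 1 for the response of lung minus kidney (2), and Ccl2 in lung against liver in air turned to 0.42 (-0.88). Without the 3 lung air libraries with muscle genes it was 5 in lung at ZT16-20 (3). Leaving out 1 library gave 3 to 4 genes in lung at ZT4-8, 3 to 5 at ZT16-20, 1 to 3 in kidney at ZT4-8, 2 to 5 in KO-labelled liver at CT4-8 and 0 to 1 in WT liver in darkness at CT16-20. It gave 0 to 1 for time in air in WT liver in darkness and in LD liver, 0 to 1 and 1 to 2 for KO against WT in air at CT4-8 and CT16-20, and 0 to 1 for the KO minus WT response at CT4-8. Between tissues it gave 1 to 3 for the response of lung minus kidney, 3 to 5 for lung minus liver, 8 to 9 for lung against liver and 7 to 8 for lung against kidney in air. Over all such refits, 2911 fold changes stayed called or stayed not called, so that this number does not count calls kept. Of the rest, 63 lost a call and 15 gained one. The cause of these changes was not tested, apart from the fewer libraries.

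Replicate letters are shared between groups, but same-letter libraries did not deviate together (correlations from -0.282 to 0.18 within tables, 3 of 39 pairs over 0.1), so the letters were not taken as pairs. With the letter as a replicate block, 2 genes were called in WT liver in darkness at CT4-8 (1 without the block, Cxcl1 being gained, as lower). In KO against WT in air at CT16-20, 1 was called (2 without it, Nfkbiz being lost with an adjusted p of 0.0556). Tnfaip3 in kidney at ZT4-8 was not called with the block (adjusted p = 0.0545) or with only the libraries compared (0.056). Genes with few counts, such as Ccl2 with 4 to 42 per lung library, are limited by depth, and a difference in them that was not called may lie below what these libraries detect.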
